A study of Mus musculus with 10 samples.

Results

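Mitochondrial complex I takes electrons from NADH, passes them to ubiquinone and pumps protons across the inner mitochondrial membrane. The genes described here are the nuclear genes of this enzyme and of the factors that build it, chosen as all symbols that begin with Nduf followed only by lower-case letters and digits. Of 51 such symbols in the RefSeq gene table, 44 had a value on the arrays, out of 19965 genes in all: 35 subunits, 7 assembly factors named Ndufaf, and Ndufa4 with its paralog Ndufa4l2. The other 7 symbols, among them Ndufab1, Ndufb1 and Ndufaf8, were not analysed here, nor were the subunits encoded by mitochondrial DNA. The rule uses symbols and no expression value, but it was chosen with earlier results of these data known.

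The samples were sorted from papain-dissociated hippocampi of mice heterozygous for Sox1-GFP, a reporter that makes green fluorescent protein (GFP) where the stem cell factor Sox1 is active. Old mice (1 year 9 months) gave 4 GFP-positive samples, and young mice gave 3 GFP-positive samples (7, 5 and 4 months in the titles) and 3 GFP-negative samples (7, 7 and 4 months). The series text gives 5 to 7 months for the young mice. All mice carried the reporter, and no other allele or treatment is given in the labels. GFP-negative cells are a mixture of everything else in the tissue, and the GFP-negative fraction of old hippocampi was not analysed here.

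Complex I has a matrix arm, which holds the NADH site, the flavin and the iron-sulfur clusters, and a membrane arm, which holds the proton channels. Core subunits carry out the reaction, accessory subunits surround and stabilise them, and assembly factors join the modules and leave before the enzyme is finished. In the brain, neurons depend on this route for ATP, while astrocytes and adult neural stem cells are known to draw more on glycolysis.

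Values are log2 RMA values, a scale on which 1 unit is a doubling, and differences between groups are differences of these values. The array medians over all probe sets lay between 6.54 and 6.66. The labelled cells were checked against markers. All 10 astrocyte markers were higher in young GFP-positive than in young GFP-negative cells (limma, adjusted p under 0.05), as were 4 of 8 stem and progenitor markers, and 0 of those 8 were lower. Sox1 itself did not pass (0.28 ± 0.11, SE, adjusted p = 0.123). Microglia markers (10 of 10), oligodendrocyte markers (10 of 10) and endothelial markers (8 of 8) were lower in the GFP-positive cells. Neuron markers did not separate the fractions in this way, since of 10 only 2 were lower, 1 was higher and 7 did not pass. The samples numbered 1 of both young groups stood apart in choroid plexus genes, with a median over 10 markers of 7.38 in young GFP-positive and 7.49 in young GFP-negative cells, against 5.44 to 5.83 in the other 8 samples. Old replicate 3 differed from the other 9 samples in Xist, which silences an X chromosome in females (11.90 against 4.95 to 5.69), and in the Y-linked gene Ddx3y (5.32 against 9.15 to 9.83).

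Most complex I genes had a lower mean in old than in young GFP-positive cells, but no single gene passed the test. The difference was negative for 40 of 44 genes, with a median of -0.28, whereas it was negative for 39.6% of all 19965 genes, which had a median of 0.053. At an adjusted p under 0.05 (limma, Benjamini-Hochberg over all genes) 0 of 44 were lower and 0 higher, and over all genes 0.015% were lower and 0% higher. At an unadjusted p under 0.05, 17 of the 44 were lower and 1 higher, while 5.46% of all genes were lower and 4.7% higher. A SAM-type permutation test, modelled on the SAM method named in the series text, also called 0 of the 44. In 8 of 44 genes every old value lay below every young GFP-positive value, against 4.06% of all genes, and in 0 of 44 every old value lay above, against 6.85% of all genes. The 8 genes without overlap were Ndufs3 among the core subunits, Ndufs4 and Ndufa2 in the matrix arm, Ndufa1, Ndufa3, Ndufa10 and Ndufb8 in the membrane arm, and the assembly factor Ndufaf5. In such sorted pools, fewer cells of a type and less RNA per cell cannot be told apart.

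**Figure D1:**
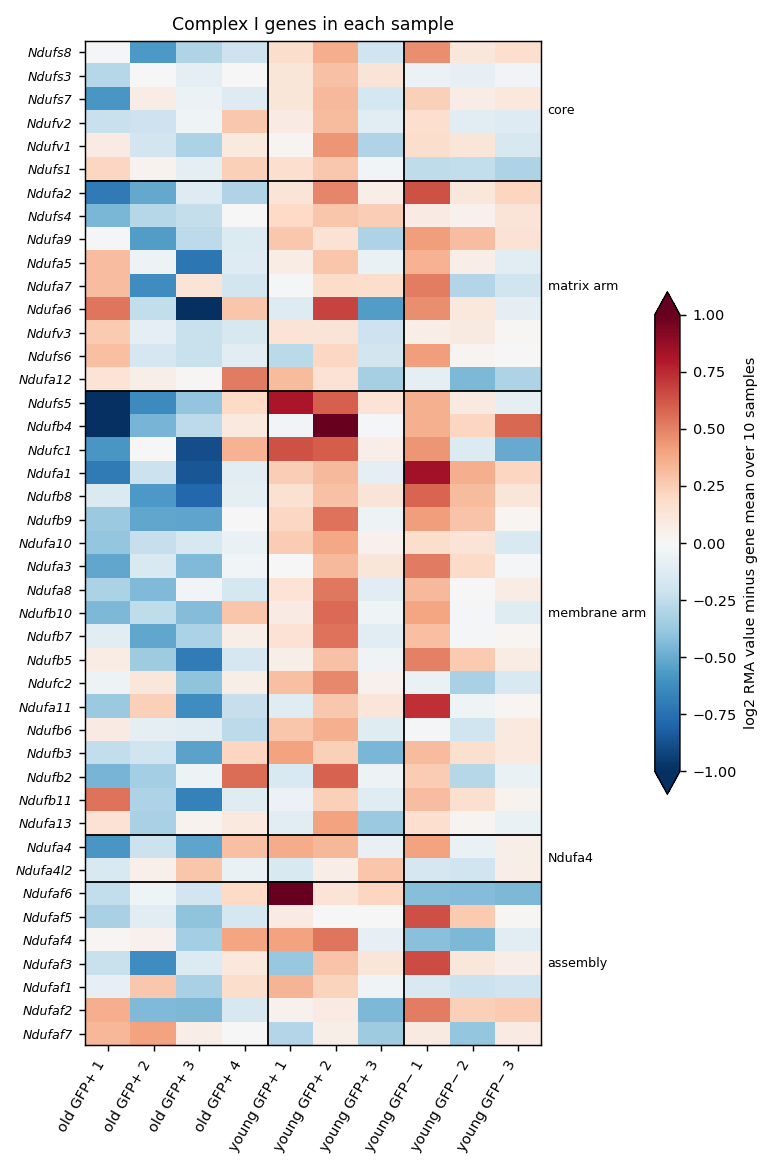
Each row is 1 of 43 complex I genes and each column a sample, with groups old GFP-positive, young GFP-positive and young GFP-negative from left to right; colour is the log2 RMA value minus the gene's mean over the 10 samples, cut at 1 in either direction. Old replicates 1, 2 and 3 are mostly blue, while old replicate 4, the highest of its group in 22 of 44 genes, holds both colours. Young GFP-positive replicate 2 and young GFP-negative replicate 1, the highest of their groups in 33 and 36 of 44 genes, are mostly red.

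The complex I genes tended to be high or low in the same samples. The median over the 35 subunits was 8.71, 8.70, 8.73 and 8.96 in old GFP-positive samples 1 to 4, against 9.06, 9.29 and 8.92 in young GFP-positive samples 1 to 3, and it was 9.21, 9.06 and 8.86 in young GFP-negative samples 1 to 3. Old replicate 4 therefore reached above the lowest young sample, while the other 3 old samples lay below all young ones. Within the old group replicate 4 held the highest value for 22 of 44 genes and replicate 3 the lowest for 20. Among young GFP-positive samples replicate 3, from a mouse of 4 months, was lowest for 32 genes, and among young GFP-negative samples replicate 1 was highest for 36. How often each sample was highest or lowest over all genes is not given here. The old mean was the lowest of the 3 group means for 34 of the 44 genes.

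Other properties of the arrays also differed between old and young samples. The SD over genes was 1.61, 1.61, 1.54 and 1.67 on old GFP-positive arrays 1 to 4. It was 1.69, 1.71 and 1.62 on young GFP-positive arrays 1 to 3. Ranked by SD, the GFP-positive samples stood in the same order as when ranked by the mean over the subunits. Bright genes tended to be lower in old samples. Among the brightest 10% of all genes, which holds 24 of the 44, 62.3% had a negative difference with a median of -0.073. Of those 24 genes 22 had a negative difference, with a median of -0.36. When all arrays were set to 1 distribution by quantile normalization, 37 of the 44 differences were negative, 13 of them at an unadjusted p under 0.05, and the median over the subunits was -0.24, against -0.33 as deposited. Without both young samples high in choroid plexus genes, 41 of 44 differences were negative and the subunit median was -0.35, but 11 rather than 17 genes were lower at an unadjusted p under 0.05. Without old replicate 3 these values were 36 genes, -0.28 and 10, and without young GFP-positive replicate 2 they were 35 genes, -0.23 and 8. Astrocyte markers, whose sample medians were 11.03 to 11.28 in old and 10.91 to 11.14 in young GFP-positive samples, had a median age difference of 0.017. Of 10 oligodendrocyte markers 10 had a negative difference, with a median of -0.48, and the sample medians were 7.32 to 8.07 in old and 7.67 to 8.41 in young GFP-positive samples. Of 10 choroid plexus markers 10 had a negative difference, with a median of -0.58, and the sample medians were 5.58 to 5.83 in old and 5.64 to 7.38 in young GFP-positive samples. The part of these cells and of array spread in the complex I differences was not tested.

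The promoters of the genes described next are shown because these genes had the largest (Ndufs5 and Ndufb4) or best supported (Ndufs4) age difference, or a high value in GFP-positive cells (Ndufaf4). They are the 250 bases before the transcription start in RefSeq, build GRCm38.p6, written in the direction of the gene. Capitals mark matches, on either strand, to the NRF1 motif, the site of nuclear respiratory factor 1, in which 1 of 10 letters is free.
Ndufs5, chr4:123718187-123718436, minus strand: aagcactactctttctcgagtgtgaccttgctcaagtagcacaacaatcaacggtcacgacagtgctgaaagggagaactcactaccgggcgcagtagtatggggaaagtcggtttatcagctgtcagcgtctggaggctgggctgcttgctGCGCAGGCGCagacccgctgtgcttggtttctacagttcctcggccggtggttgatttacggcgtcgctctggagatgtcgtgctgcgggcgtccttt
Ndufb4, chr16:37654369-37654618, minus strand: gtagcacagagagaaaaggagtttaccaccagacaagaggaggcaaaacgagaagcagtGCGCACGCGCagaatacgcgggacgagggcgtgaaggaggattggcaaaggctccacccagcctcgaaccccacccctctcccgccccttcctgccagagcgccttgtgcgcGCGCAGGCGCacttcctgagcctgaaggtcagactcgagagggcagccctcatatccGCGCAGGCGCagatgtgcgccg
Ndufs4, chr13:114388095-114388344, minus strand: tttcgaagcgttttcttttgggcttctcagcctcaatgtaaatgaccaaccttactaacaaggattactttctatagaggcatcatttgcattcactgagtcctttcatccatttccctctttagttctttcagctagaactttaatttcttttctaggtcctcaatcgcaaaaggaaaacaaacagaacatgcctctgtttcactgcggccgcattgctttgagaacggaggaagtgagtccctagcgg
Ndufaf4, chr4:24897833-24898082, plus strand: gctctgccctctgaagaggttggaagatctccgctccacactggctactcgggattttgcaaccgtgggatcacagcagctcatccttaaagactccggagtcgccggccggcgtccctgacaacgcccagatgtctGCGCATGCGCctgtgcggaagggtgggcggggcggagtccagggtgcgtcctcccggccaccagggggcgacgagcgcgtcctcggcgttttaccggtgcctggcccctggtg

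Ndufs5 holds 1 match, Ndufb4 holds 3, Ndufaf4 holds 1 and the Ndufs4 stretch none. The search covered 300-base windows, from 250 bases before the start to 50 after it, of the 38 genes with a promoter in the table. Of their 40 promoters 25.0% held the NRF1 motif, compared with 4.6% of all 32851 promoters. The motif AAGATGGC of the factor YY1 was found in 17.5%, compared with 2.75% of all, and in each of these 7 genes, Ndufs4 among them, it lay in the direction of the gene, 22 to 38 bases after the start. The ETS motif CCGGAAG, which GABPA binds, was found in 12.5%, compared with 8.86% of all. No match in these genes overlapped a match to another of the 3 motifs. The median age difference was -0.28 in the 9 genes with the NRF1 motif and -0.27 in the 29 without it. It was -0.43 in the 7 genes with the YY1 motif and -0.25 in the 31 without. A match is a description of letters and not evidence of binding.

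The core subunits include the proteins that hold the flavin and the iron-sulfur clusters. All 7 had a negative age difference, with a median of -0.26, and 3 of them had an unadjusted p under 0.05. Over all genes 39.6% were negative and 5.46% lower at that p. Ndufs8, an iron-sulfur protein, had 7.94, 7.38, 7.66 and 7.75 in old GFP-positive samples, against 8.13, 8.32 and 7.76 in young GFP-positive samples. Its difference of -0.39 ± 0.17 (SE, limma, adjusted p = 0.473) did not pass, and old replicate 1 lay above the lowest young value. Ndufs3, a subunit of the module that binds ubiquinone, had 10.23, 10.52, 10.43 and 10.51 in old and 10.64, 10.81 and 10.65 in young GFP-positive samples. These groups did not overlap, at a difference of -0.28 ± 0.11 (SE, adjusted p = 0.431). Differences were smaller for Ndufs7, which carries the last iron-sulfur cluster (-0.26), Ndufv2 (-0.15), Ndufv1, which binds NADH and the flavin (-0.14), and Ndufs1, the largest subunit (-0.039), with limma adjusted p from 0.588 to 0.910.

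Of the 9 accessory subunits of the matrix arm, 7 had a negative age difference and 2 a positive one, with a median of -0.21. The share of all genes with a negative difference was 39.6%. Ndufs4, whose loss gives mice a fatal encephalopathy, had the smallest p of all 44 genes. It had 9.29, 9.47, 9.51 and 9.75 in old GFP-positive samples, against 9.95, 10.03 and 9.999 in young GFP-positive samples. Every old value lay below every young one, and the difference of -0.49 ± 0.12 (SE, 95% interval -0.74 to -0.23) was a 1.40-fold lower mean, short of the threshold (limma, adjusted p = 0.239). Ndufa2, which has a thioredoxin-like fold, had 8.48, 8.68, 9.06 and 8.88 in old and 9.32, 9.67 and 9.25 in young GFP-positive samples. These groups did not overlap either, at a difference of -0.64 ± 0.17 (SE, adjusted p = 0.289). Ndufa12 lay at the other end of the list (0.14 ± 0.18, SE, adjusted p = 0.767), with values of 8.98 to 9.49 in old and 8.64 to 9.29 in young GFP-positive samples. The other positive difference was that of Ndufs6 (0.029, adjusted p = 0.955), a zinc-binding subunit. Ndufa6, which contacts the acyl carrier protein in the matrix arm, varied most within groups, from 7.01 to 8.56 in old and from 7.47 to 8.70 in young GFP-positive samples.

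The membrane arm held the largest age differences. Of its 19 measured accessory subunits 18 had a negative difference, with a median of -0.42, 11 of them at an unadjusted p under 0.05, where 39.6% of all genes were negative and 5.46% lower at that p. Ndufs5, a small protein on the intermembrane side, had 8.27, 8.70, 8.95 and 9.54 in old GFP-positive samples, against 10.16, 9.94 and 9.48 in young GFP-positive samples. Only old replicate 4 reached the range of the young samples, and the difference of -0.996 ± 0.26 (SE, 95% interval -1.58 to -0.42) corresponds to a 1.99-fold lower mean (limma, adjusted p = 0.266). In young GFP-negative cells Ndufs5 had 9.69, 9.43 and 9.25. The next differences were those of Ndufb4 (-0.85 ± 0.35, SE, adjusted p = 0.452) and Ndufc1 (-0.72 ± 0.30, SE, adjusted p = 0.464), both chosen for mention after their values were seen. Ndufb4 has protein-coding copies, Ndufb4b and Ndufb4c, in the gene table, so its signal may include theirs. Old replicate 1 at 4.45 was its lowest sample. Ndufb4 is a dim gene, since only 32.7% of all genes had a lower mean level. Low expression and background are therefore not separated in its values. Among the membrane arm genes without overlap, Ndufa10, which resembles nucleoside kinases, had 9.35, 9.51, 9.58 and 9.67 in old and 9.99, 10.13 and 9.78 in young GFP-positive samples (-0.44 ± 0.13, SE, adjusted p = 0.308). Ndufb8, often used as a blotting marker of assembled complex I, had 8.65, 8.21, 8.005 and 8.70 in old GFP-positive samples, against 8.95, 9.09 and 8.92 in young GFP-positive samples (-0.59 ± 0.18, SE, adjusted p = 0.319). The young values of Ndufb8 lay close together, while the old ones spread more widely below them.

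Ndufa1 and Ndufb11 are the members on the X chromosome, named here after their values were seen. Ndufa1, a small membrane subunit, had 9.10, 9.59, 8.95 and 9.69 in old GFP-positive samples, against 10.05, 10.13 and 9.72 in young GFP-positive samples, without overlap (-0.63 ± 0.21, SE, limma, adjusted p = 0.379). Ndufb11 had 8.13, 7.27, 6.90 and 7.46 in old and 7.52, 7.82 and 7.46 in young GFP-positive samples (-0.16 ± 0.23, SE, adjusted p = 0.800). In both genes the lowest sample was old replicate 3, the sample with high Xist. That sample was also the lowest GFP-positive sample for 17 of all 44 genes. Sex cannot be told apart from other properties of this 1 sample, and its part in these values was not tested. Ndufa13 (0.016, adjusted p = 0.980), which is also known as the cell death gene Grim19, was the single membrane arm member with a difference above 0.

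**Figure D2:**
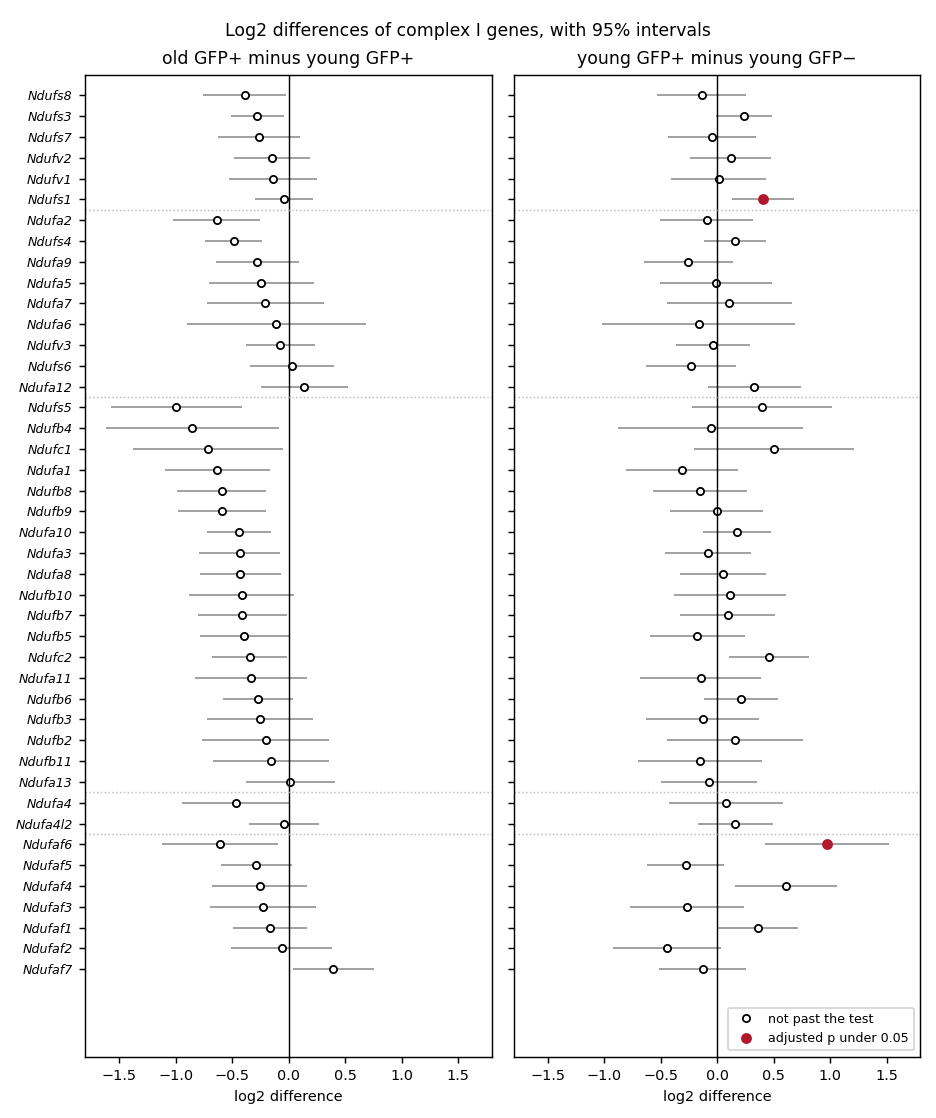
Log2 differences of 43 of the 44 genes, old minus young GFP-positive at left and young GFP-positive minus GFP-negative at right; circles are limma estimates, lines their 95% intervals, and filled circles have an adjusted p under 0.05. On the left 39 circles lie below 0 and none is filled, and on the right 21 lie above and 22 below 0, and Ndufs1 and Ndufaf6 are filled.

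None of the assembly factors passed the test for age. Of 7 measured Ndufaf genes, 6 had a negative age difference and 1 a positive one, with a median of -0.23, where 39.6% of all genes were negative. Ndufaf7, in human cells a methyltransferase that acts early in assembly, was the single gene of the 44 with a positive difference at an unadjusted p under 0.05. It had 8.56, 8.62, 8.29 and 8.22 in old and 7.93, 8.29 and 7.87 in young GFP-positive samples. The groups overlapped, since old replicate 4 and young replicate 2 lay close together, at a difference of 0.40 ± 0.16 (SE, limma, adjusted p = 0.455). Ndufaf6, in human cells needed early in assembly, had 5.48, 5.68, 5.53 and 5.92 in old and 6.97, 5.86 and 5.94 in young GFP-positive samples. Young replicate 1 stood high, and the difference was -0.61 ± 0.23 (SE, adjusted p = 0.432). Ndufaf5, which in human cells hydroxylates the Ndufs7 protein, had a difference of -0.28, Ndufaf4 of -0.25, Ndufaf3 of -0.23, Ndufaf1 of -0.16 and Ndufaf2, a paralog of Ndufa12, of -0.062, with adjusted p from 0.527 to 0.918. The difference between subunits and assembly factors was not tested. Ndufa4, first assigned to complex I and later to complex IV, had 9.79, 10.16, 9.84 and 10.67 in old GFP-positive samples, against 10.74, 10.70 and 10.30 in young GFP-positive samples (-0.47 ± 0.21, SE, adjusted p = 0.492). Its paralog Ndufa4l2, a hypoxia-induced gene that marks brain pericytes, lay between 5.35 and 5.78 in both groups (-0.038, adjusted p = 0.928). Only 23.6% of all genes had a lower mean level than Ndufa4l2, so low expression and background are not separated in its values.

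**Figure D3:**
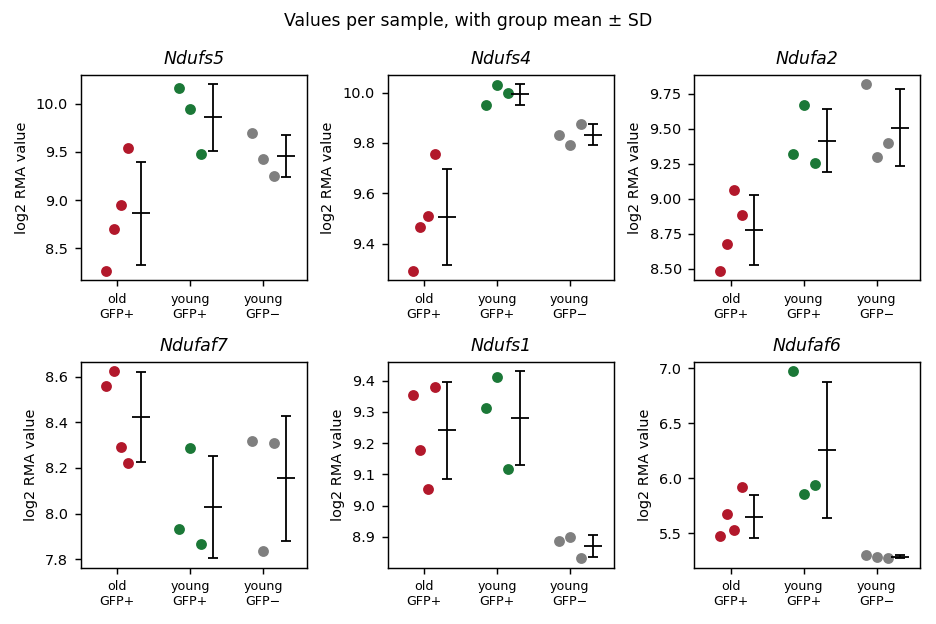
Log2 RMA values of 6 genes, 1 point per sample, with group mean and SD (n = 4 old GFP-positive, 3 young GFP-positive, 3 young GFP-negative; each panel has its own scale, which does not start at 0). Old values of Ndufs4 and Ndufa2 lie below all young ones, and young GFP-positive values of Ndufs1 and Ndufaf6 above all young GFP-negative ones.

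Few complex I genes differed past the test between the sorted fractions of the young hippocampus. The question here is which genes distinguish GFP-positive from GFP-negative cells of young mice. Of the 44 genes 2 were higher in young GFP-positive cells and 0 lower at an adjusted p under 0.05 (limma), where 7.68% of all genes were higher and 9.3% lower. At an unadjusted p under 0.05, 5 were higher and 0 lower, where 16.1% of all genes were higher and 14.2% lower. The differences were positive for 22 genes and negative for 22, with a median of 0.0040 and a range from -0.44 to 0.97, while the median over all genes was 0.098. The groups did not overlap in 7 genes with higher and 1 with lower values in GFP-positive cells, where the shares over all genes were 23.9% and 15%. For Ndufv1 the 95% interval of the difference ran from -0.41 to 0.43, so a difference of that size in either direction stays within its error.

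Ndufs1, the core subunit with the most iron-sulfur clusters, was higher in GFP-positive cells. It had 9.31, 9.41 and 9.12 in young GFP-positive samples, against 8.88, 8.90 and 8.83 in young GFP-negative samples. The groups did not overlap, and the difference of 0.41 ± 0.12 (SE) was 1.33-fold (limma, adjusted p = 0.0451). The old GFP-positive samples, at 9.35, 9.18, 9.05 and 9.38, overlapped with the young GFP-positive ones. The call was lost when any sample of the young groups other than young GFP-positive replicate 3 was left out (adjusted p from 0.0924 to 0.148), at differences of 0.34 to 0.42. It was also lost with only both young groups in the fit (adjusted p = 0.0546).

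Ndufaf6 was higher by 0.97 ± 0.25 (SE, 1.96-fold, limma, adjusted p = 0.0195). It had 6.97, 5.86 and 5.94 in young GFP-positive samples, against 5.30, 5.29 and 5.27 in young GFP-negative samples. Ndufaf6 is a dim gene, since only 27.8% of all genes had a lower mean level. Low expression and background are therefore not separated in its values. Young GFP-positive replicate 1 stood above the other samples. The choroid plexus marker median was 7.38 in that sample and 7.49 in young GFP-negative replicate 1, and its part in the Ndufaf6 values was not tested. Without young GFP-positive replicate 1 alone, the difference was 0.61 (adjusted p = 0.0218). Without both replicates 1, it was 0.62 (adjusted p = 0.0550), and without young GFP-negative replicate 1 or 2 the adjusted p was 0.0567 and 0.0587. The call was also lost with quantile normalization (0.86, adjusted p = 0.0539) and with only both young groups in the fit (adjusted p = 0.0555). Ndufaf4, which acts with Ndufaf3 in early assembly, had 8.87, 9.00 and 8.39 in young GFP-positive and 8.05, 8.02 and 8.37 in young GFP-negative samples. Its difference of 0.61 ± 0.20 (SE) came close to the threshold (adjusted p = 0.0648). It passed when young GFP-positive replicate 3 was left out (0.79, adjusted p = 0.0215). Dropping young GFP-negative replicate 3 gave 0.72 (adjusted p = 0.0515). Dropping any other single young sample lowered the difference to between 0.49 and 0.56, further from the threshold (adjusted p from 0.173 to 0.193).

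The other assembly factors went both ways without passing. Ndufaf1, which helps build the membrane arm, had a difference of 0.36 ± 0.16 (SE, limma, adjusted p = 0.154), with no overlap between groups. Ndufaf2 had 9.38, 9.42 and 8.89 in young GFP-positive samples, against 9.85, 9.57 and 9.60 in young GFP-negative samples, and was the single gene of the 44 whose GFP-positive values all lay below (-0.44 ± 0.22, SE, adjusted p = 0.196). Ndufaf5 (-0.28), Ndufaf3 (-0.27) and Ndufaf7 (-0.13) had negative differences, at adjusted p of 0.247, 0.442 and 0.642. Among core subunits, Ndufs3 differed by 0.24 (adjusted p = 0.185), Ndufv2 by 0.12, Ndufv1 by 0.012, Ndufs7 by -0.048 and Ndufs8 by -0.14, none past the test. In the membrane arm Ndufc2 came closest, with 11.35, 11.53 and 11.09 in young GFP-positive samples, against 10.98, 10.73 and 10.90 in young GFP-negative samples. Its groups did not overlap, and the difference was 0.46 ± 0.16 (SE, adjusted p = 0.0764). Ndufs5, with the largest age difference, differed by 0.40 ± 0.28 (SE, adjusted p = 0.354) between the sorted fractions, and its values overlapped. Ndufa4 (0.079, adjusted p = 0.832) and Ndufa4l2 (0.16, adjusted p = 0.483) did not pass either, while 5 of 7 pericyte markers were lower and 1 higher in GFP-positive cells.

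Other genes of the respiratory chain were described by lists written with earlier results of these data known. In the age comparison all 12 ATP synthase subunits had a negative difference (median -0.42), 9 of them without overlap between groups and 9 at an unadjusted p under 0.05, where the shares over all genes were 39.6% negative, 4.06% without overlap and 5.46% lower at that p. Of 9 complex III subunits 8 were negative (median -0.39), and of 12 complex IV subunits 10 (median -0.25). Complex II with other entry points of electrons had 8 of 10 negative at a median of -0.11, and 10 assembly factors of complex I outside the Ndufaf family had 7 negative at a median of -0.063. Mitochondrial ribosomal proteins had 63 of 76 negative (median -0.17). In each of these lists 0 genes passed the adjusted test for age, and differences between lists were not tested.

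**Figure D4:**
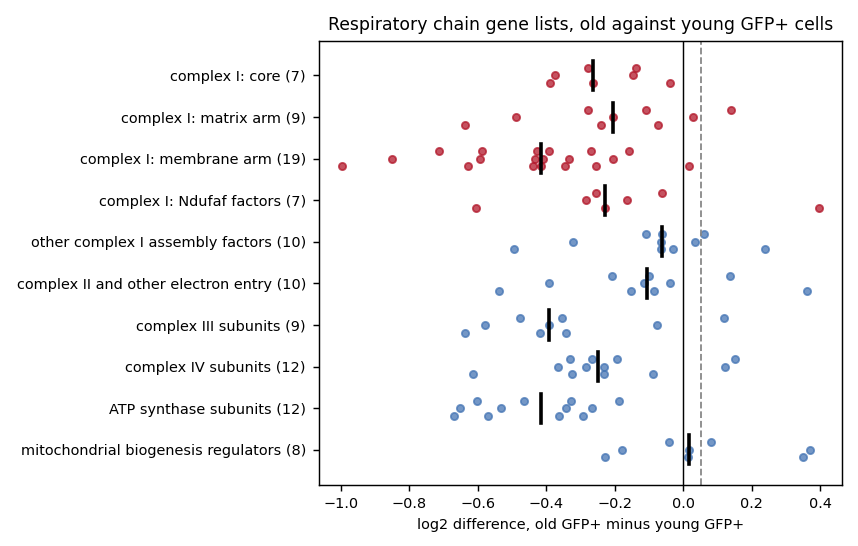
Log2 differences of old minus young GFP-positive cells for single genes (points) and their median (bars) in complex I groups (red) and other lists (blue), with the number of genes in brackets; the dashed line is the median over all genes, 0.053. The medians of membrane arm, complex III and ATP synthase lie furthest left, between -0.42 and -0.39.

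In the sort comparison entry points other than complex I included genes past the test. Of 10 genes in that list 3 were higher in young GFP-positive cells and 0 lower (median 0.41), where 7.68% of all genes were higher and 9.3% lower (median 0.098). They were Etfa (0.79 ± 0.17, SE, limma, adjusted p = 0.00680) and Etfdh (0.68 ± 0.15, SE, adjusted p = 0.00863), which pass electrons from fatty acid oxidation to ubiquinone, and the glycerol phosphate dehydrogenase Gpd2 (0.84 ± 0.25, SE, adjusted p = 0.0403). Complexes III, IV and ATP synthase had 0 genes past the test in either direction, with medians of 0.19, -0.0081 and 0.17, as did the other complex I assembly factors (median 0.21).

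Regulators that act on these genes were also measured. Ppargc1a, a coactivator of mitochondrial biogenesis, had 9.81, 9.63, 9.60 and 9.86 in old GFP-positive samples, against 9.52, 9.68 and 8.87 in young GFP-positive samples, and it had 7.41, 7.35 and 7.29 in young GFP-negative samples. It was higher in young GFP-positive than in young GFP-negative cells by 2.01 ± 0.18 (SE, limma, adjusted p = 2.03e-05), while the age difference of 0.37 ± 0.17 (SE, adjusted p = 0.496) did not pass. Nrf1, the factor whose motif stands in the promoters above, had 7.73, 7.33, 7.51 and 7.51 in old and 7.09, 6.91 and 7.51 in young GFP-positive samples, and 6.53, 6.495 and 6.78 in young GFP-negative samples. Its sort difference was 0.57 ± 0.17 (SE, adjusted p = 0.0372), and its age difference of 0.35 ± 0.15 (SE, adjusted p = 0.479) did not pass. Of the 8 regulators measured, 2 were higher and 0 lower in the sort comparison, where 7.68% of all genes were higher and 9.3% lower. For age 0 regulators passed, where 0% of all genes were higher and 0.015% lower. Both comparisons share the young GFP-positive samples, so a high value there enters them with opposite sign.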

How the data were processed

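Cells sorted by GFP were profiled on Affymetrix Mouse Gene 1.0 ST arrays after amplification with a kit made for fixed tissue, per the series text. The deposited values are log2 expression values made by RMA, per the submitters' processing notes, with probes regrouped by RefSeq transcript of mm9 and 1 skewed array of a young mouse left out by the submitters, per the series text. No RMA version is named there. Dim genes have no detection call here, so low expression and background are not separated, and precision is limited by the 10 arrays.

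Of 31672 probe sets, 24590 matched 1 symbol in a RefSeq table of GRCm38.p6. The probe set with the highest mean stood for a gene, giving 19965 genes. Of the 44 members 3 had several probe sets. Groups were compared in 1 limma fit of 3 group means over 10 samples (R 4.3.3, limma 3.58.1, two-sided, with 7 residual degrees of freedom and 4.07 from the prior, Benjamini-Hochberg over all genes, threshold 0.05), tested on simulated data first. The titles call the samples biological replicates. SE is the moderated standard error. Alternatives included a SAM-type permutation test, array weights, other normalizations, filters and samples left out. Figures were drawn with matplotlib 3.10.9.

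The members and lists were chosen with earlier results of these data known. Named genes were the core subunits, the Ndufaf factors, Ndufa4 and Ndufa4l2, the 3 members with the smallest p per comparison (fewer than 3 passed in each), up to 3 genes past the test per other respiratory list, and any member with an old sample far from its group. The values of 1 member are not reported here, although it stays in the fit and in the counts. Other genes named were chosen after their values were seen.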

Additional observations from a re-analysis of the deposited data

How the results depend on the processing

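In the age comparison 0 of 35 subunits and 0 of 7 assembly factors passed the adjusted test under any alternative run, and the medians stayed below 0 (subunits -0.45 to -0.23, assembly factors -0.31 to -0.13). The number of negative differences stayed between 35 and 42, and leaving out 1 sample at a time moved the count lower at an unadjusted p under 0.05 between 8 and 25. That count was 11 without both young samples numbered 1 and 24 without the 4-month-old mice. Over all genes 3 passed for age, but 20 with array weights, 16 by the SAM-type test, 9 without the dimmest 50% of genes and 0 with quantile normalization. In the sort comparison the calls rested on few samples. The 1 subunit called higher became 0 with only the groups compared, with arrays centred on their medians, without both young samples numbered 1 and without the 4-month-old mice. It became 2 with quantile normalization and by the SAM-type test and 5 with array weights, and ranged from 0 to 2 with 1 sample left out. The 1 assembly factor called became 0 with only the groups compared, without the dimmest 33.3% or 50% of genes, which leave out Ndufaf6, and without both young samples numbered 1. With quantile normalization it stayed 1, but Ndufaf4 (adjusted p = 0.0238) passed in place of Ndufaf6 (adjusted p = 0.0539). It became 2 without the 4-month-old mice and 3 with array weights and by the SAM-type test, and ranged from 0 to 2 with 1 sample left out. The assembly factor median of -0.13 became 0.11 with array weights and 0.11 without both young samples numbered 1. Over all genes 3390 passed for sort, 5736 with array weights and 1841 without both young samples numbered 1. The causes were not tested. Samples of the same replicate number did not deviate together in every pair (correlations of 0.12, 0.021 and 0.19 for the young fractions). Young pairs with different numbers had correlations from -0.18 to 0.078, so pairs 1 and 3 lay above all of these. The main fit used no pairing. With replicate number as a block 1 subunit and 1 assembly factor were higher in the sort comparison and 0 passed for age, at age medians of -0.39 and -0.31. Only the old group has a replicate 4, so this block leaves that sample out of the age difference. The medians equal those without old replicate 4. Old and young mice of the same number are different animals, and the titles give 5 and 7 months for the young samples numbered 2. The block is therefore not a pairing by mouse.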
